A study of Mus musculus with 10 samples.

Results

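The genes described here are those of the proteasome, taken as every mouse gene whose symbol on the array begins with Psma to Psmg followed by a digit. The pattern caught 51 symbols, and 50 of them had a probe set of their own among the 19938 genes measured that way. Psme2b shared its only probe set with Psme2 and has no value here. The 50 genes comprised 7 core alpha subunits, 7 constitutive core beta subunits, 3 immunoproteasome beta subunits, 6 ATPase and 11 non-ATPase regulatory subunits, 5 activators or inhibitors, 7 assembly factors and 2 core subunits restricted to testis or thymus. The remaining 2, Psmc3ip and Psme3ip1, matched by name although neither encodes a subunit.

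RNA was measured on 10 Affymetrix arrays from mice of a strain written C56BL6N, labelled 8 weeks old. The methods name C57Bl6 mice for electroporation. In TA (tibialis anterior), 2 arrays held myofibers electroporated with a control vector and 2 held myofibers electroporated with shlinc-MYH, a vector expressing a short hairpin RNA against the nuclear long intergenic RNA linc-MYH. In each case 10 µg of plasmid was introduced and GFP-positive fibers were dissected 2 weeks later, so controls and treated muscles alike had been electroporated and were picked by the marker. In the methods, the control plasmid codes for shLacZ, a hairpin against LacZ, and was placed in the opposite TA of the same mouse. However, no source says that arrays with the same replicate number share a mouse. In gastrocnemius, 3 arrays came from wild type mice and 3 from cSix1 KO mice, a conditional knockout made with HSA-CRE. The human skeletal actin promoter drives that recombinase, so the deletion is aimed at muscle fibers and not at the other cells of the muscle. The gastrocnemius RNA was from whole muscle, in which fewer cells of a type and less RNA per cell cannot be told apart. No source states that the gastrocnemius arrays were separate animals, and p-values then measure the spread between these arrays, which may be technical.

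The proteasome is the main protease of the cytosol and nucleus. Its barrel is made of rings of alpha subunits, which gate the entrance, and rings of beta subunits, of which Psmb5, Psmb6 and Psmb7 carry the proteolytic sites. A regulatory particle caps the barrel: its Psmc ATPases unfold the substrate and its Psmd subunits bind and remove ubiquitin. Interferon induces Psmb8, Psmb9 and Psmb10, which replace the constitutive catalytic subunits to form the immunoproteasome, and the activator subunits Psme1 and Psme2. In wasting muscle, proteasome genes are known to be induced together with the ubiquitin ligases Fbxo32 and Trim63, and the transcription factor Nfe2l1 restores subunit expression when proteasome activity is short.

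Promoter windows were at hand in the RefSeq table of assembly GRCm38.p6 for 42 of the 50 genes, in 46 windows of 300 bases that ran from 250 before to 50 after a start site. The antioxidant response element core TGACNNNGC, read by Nfe2l1 and Nfe2l2, was found on either strand in 13.0% of the members' windows and in 12.4% of all 32851 windows. CCAAT, the NF-Y motif, was in 34.8% and 37.4%. The interferon-stimulated response element was in 10.9% and 3.44%, in 5 members (Psmb3, Psmd4, Psmd9, Psme1 and Psmg4). These matches are descriptions of letters in a window and no site was tested. Stretches upstream of the start site are shown for both catalytic subunits and the ATPase that hold the antioxidant core, each 5′ to 3′ on the gene's strand with the matched bases in capitals. They lie at chr14:54617996-54618082 (Psmb5, minus strand), chr11:70525308-70525356 (Psmb6, plus strand) and chr14:45329574-45329645 (Psmc6, plus strand).
Psmb5: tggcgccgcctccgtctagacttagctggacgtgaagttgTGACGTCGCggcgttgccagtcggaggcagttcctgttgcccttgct
Psmb6: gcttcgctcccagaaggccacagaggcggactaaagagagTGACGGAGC
Psmc6: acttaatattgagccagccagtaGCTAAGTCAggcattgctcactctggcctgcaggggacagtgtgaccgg
The fold changes of these 3 genes, described with their subunit groups, were not called in either tissue.

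All values are log2 signals, on which a difference of 1 is a doubling. The 11 skeletal muscle markers examined, from Acta1 and Ckm to the fast myosin gene Myh4, lay at or above the 98.8 percentile of all genes in the TA controls and the 99.0 percentile in the gastrocnemius controls. No probe set carried linc-MYH alone, so its depletion was not analysed here. Array medians over all probe sets were 5.09 to 5.14 in TA and 6.60 to 6.67 in gastrocnemius, and no level is compared between the tissues. Pearson correlations between replicate arrays over all genes were 0.988 and 0.990 in TA and ran from 0.992 to 0.997 in gastrocnemius.

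In TA, most proteasome genes lay slightly above control after linc-MYH knockdown, but none passed the test and the size of the excess depended on the control array. The log2 fold change, shlinc-MYH minus control, was above 0 for 37 of 50 members, where 43.7% of all genes were above 0. Its median was 0.16 for the members and −0.03 for all genes. The share of all genes above 0 varied with processing. It was 48.5% with quantile normalization (35 of 50 members), 51.7% with median centring (37 of 50) and 48.8% with dim genes left out (37 of 46). By limma with Benjamini-Hochberg adjustment over all genes, 0 of 50 members were called higher (background 0.015%) and 0 lower (background 0.0%), and the lowest adjusted p was 0.471. At an unadjusted p under 0.05, 6 members were higher (background 4.27%) and 0 lower (background 4.37%). The methods' t-test called 0 after adjustment and gave 2 higher and 0 lower before it. Over all genes that test gave 3.0% higher and 3.93% lower before adjustment and called 0 after it. Both shlinc-MYH arrays exceeded both controls for 23 members (background 16.3%) and lay below both for 3 (background 23.0%). The 95% confidence interval of the change lay within 2-fold in either direction for 47 of 50 members, as it did for 96.9% of all genes. Changes smaller than these intervals were not detectable with 2 arrays per group. An interval that excluded 0 was also not enough for a call. For Psmd13 it ran from 0.16 to 0.79, and the adjusted p was 0.471 by limma.

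The 2 TA controls differed in the level of these genes. Control 2 exceeded control 1 in 45 of 50 members, with a median difference of 0.28, whereas over all genes control 1 was the higher in 47.9%. Without control 1, 27 of 50 members were above 0 and their median was 0.01. Without control 2, 44 were above 0 and the median was 0.31. Between arrays of the same replicate number, shlinc-MYH 1 exceeded control 1 in 38 of 50 members with a median difference of 0.24, and shlinc-MYH 2 exceeded control 2 in 34 of 50 with a median of 0.09. Over all genes these were 45.1% and 46.2%.

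**Figure D1:**
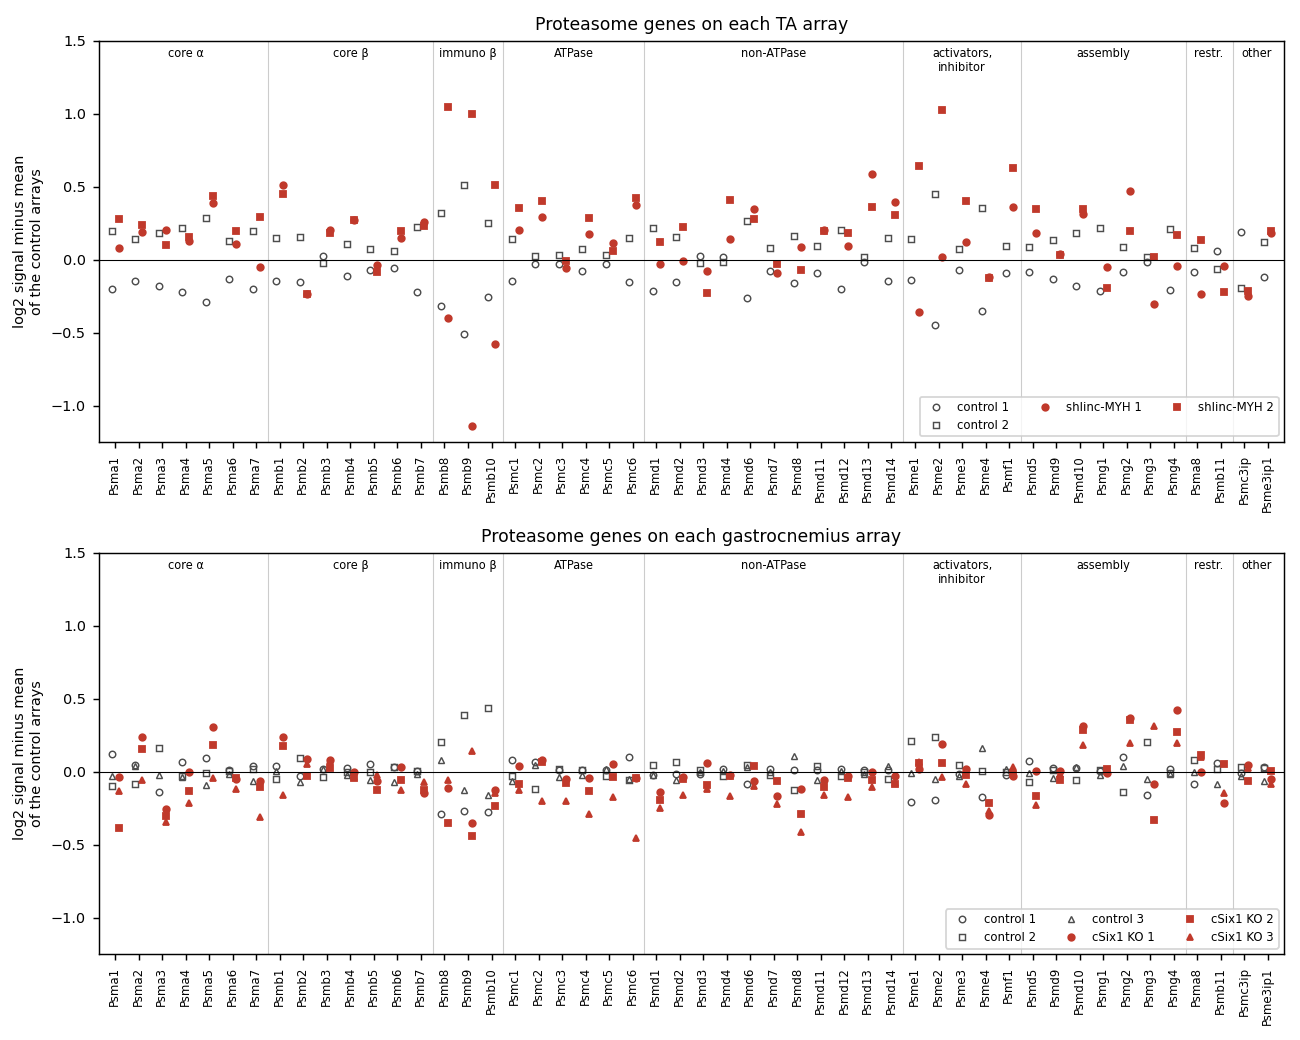
Log2 signal of each of the 50 proteasome genes on every array, as the difference from the mean of the control arrays of the same tissue (vertical axis, log2 units), with genes along the horizontal axis by subunit group; open grey symbols are control arrays and red symbols are shlinc-MYH (top) or cSix1 KO (bottom) arrays, with 1 marker shape per replicate. In TA, control 2 lies above control 1 for 45 of 50 genes and the immunoproteasome genes spread the most. In gastrocnemius, Psmd10, Psmg2 and Psmg4 are the assembly factors with all cSix1 KO arrays above all controls.

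Among the core alpha subunits in TA, all 7 were above 0, with a median of 0.15 and no call. Psma5 read 8.96 and 9.54 in the controls and 9.64 and 9.68 with shlinc-MYH, a log2 fold change of 0.41 ± 0.20 (SE, n = 2 per group) with an adjusted p of 0.635 by limma. Psma2 read 8.84 and 9.13 against 9.18 and 9.23, a change of 0.21 ± 0.14. For both genes the groups did not overlap, and in both the lower control was control 1. Psma6 read 10.49 and 10.75 against 10.73 and 10.82, so that its groups overlapped.

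Of the constitutive beta subunits, 5 of 7 were above 0, with a median of 0.19. Psmb1, a non-catalytic ring subunit, read 8.43 and 8.73 in the controls and 9.09 and 9.03 with shlinc-MYH. Its log2 fold change of 0.48 ± 0.14 had an adjusted p of 0.490 by limma. Psmb4 read 10.60 and 10.82 against 10.98 and 10.99, and Psmb3 read 9.02 and 8.97 against 9.20 and 9.18, without overlap in either gene. The catalytic subunits had changes on both sides of 0: Psmb7 had a change of 0.25 ± 0.17, Psmb6 of 0.17 ± 0.12 and Psmb5 of −0.06 ± 0.12. Psmb2 had the lowest value of all members, at −0.23 ± 0.14, reading 8.98 and 9.29 against 8.90 and 8.90.

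The regulatory particle held 4 of the 6 members with an unadjusted p under 0.05 in TA. Of the ATPases, 5 of 6 were above 0 with a median of 0.25, and for all 5 both shlinc-MYH arrays exceeded both controls (background 16.3%). Psmc2 read 8.57 and 8.62 against 8.89 and 9.00, a change of 0.35 ± 0.12 with an adjusted p of 0.520 by limma. Psmc6 read 9.12 and 9.43 against 9.65 and 9.70, a change of 0.40 ± 0.14. Psmc1 read 9.22 and 9.51 against 9.57 and 9.72, a change of 0.28 ± 0.15. Psmc3 was the exception, at −0.03 ± 0.12. Of the non-ATPase subunits, 9 of 11 were above 0 with a median of 0.14. Psmd13, a scaffold subunit of the lid, read 7.20 and 7.24 in the controls and 7.81 and 7.58 with shlinc-MYH. Its controls were close to each other, and its change of 0.47 ± 0.13 had the largest test statistic among members, with an adjusted p of 0.471 by limma. Psmd14, the deubiquitinase of the lid, read 8.86 and 9.15 against 9.40 and 9.31, a change of 0.35 ± 0.14. Psmd4, a ubiquitin receptor, read 8.90 and 8.86 against 9.02 and 9.29, while Psmd3 had a change of −0.15 ± 0.12.

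The immunoproteasome subunits showed no common shift in TA, because the 2 shlinc-MYH arrays lay on opposite sides of the controls. Psmb9 read 7.49 and 8.51 in the controls and 6.86 and 9.00 with shlinc-MYH, a log2 fold change of −0.07 ± 0.68 with a 95% confidence interval from −1.71 to 1.56. Psmb8 read 6.79 and 7.43 against 6.71 and 8.15, a change of 0.32 ± 0.46. Psmb10 read 6.92 and 7.43 against 6.60 and 7.69, a change of −0.03 ± 0.36. In all 3 genes shlinc-MYH 1 was the lowest array and shlinc-MYH 2 the highest, and the highest within-group SD among all members, 1.18, was found here. For Psmb9 and Psmb8 the interval was not within 2-fold.

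The activator subunits Psme1 and Psme2, which form a ring that opens the barrel, were also highest on shlinc-MYH 2. Psme1 read 9.27 and 9.54 against 9.05 and 10.05, and Psme2 read 6.49 and 7.38 against 6.96 and 7.96. Psme2 had the highest fold change of all members, 0.52 ± 0.40, with an adjusted p of 0.769 by limma. Psme3, the nuclear activator, read 7.71 and 7.85 against 7.90 and 8.18, without overlap, a change of 0.26 ± 0.14. Psmf1, an inhibitor of the core particle, read 5.35 and 5.54 against 5.80 and 6.07, a change of 0.49 ± 0.15 with an adjusted p of 0.490 by limma. Psme4, which activates degradation of acetylated histones, had a change of −0.12 ± 0.23.

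A list of 12 measured antigen processing and interferon genes included Tap1 and the interferon regulatory factors Irf7 and Irf9. In TA the median of this list, but not each of its genes, had the array order of the immunoproteasome subunits. This median difference from the control mean was −0.12 and 0.12 in controls 1 and 2, −0.39 with shlinc-MYH 1 and 0.39 with shlinc-MYH 2. For the 3 immunoproteasome genes the same medians were −0.32, 0.32, −0.58 and 1.00. Irf7 read 6.38 and 6.42 against 5.99 and 6.67, and Irf9 read 6.31 and 6.26 against 5.67 and 6.38. Nlrc5 read 8.40 and 8.56 against 8.39 and 8.29, lowest on shlinc-MYH 2. Erap1 was highest on control 2, and Stat2 and Ifit1, like Irf9, were higher on control 1 than on control 2. On shlinc-MYH 1, 0 of the 12 genes lay above their control mean, and on shlinc-MYH 2, 11 did. None of the 12 genes was called, and their median log2 fold change was 0.06.

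Markers of other cell types also differed between these arrays. All 7 endothelial markers were below 0 in TA, with a median of −0.74 and no call, and their mean log2 signal was 7.28 and 7.20 in the controls and 6.21 and 6.93 with shlinc-MYH. The 9 lymphocyte and other leukocyte markers had mean signals of 5.24 and 5.41 against 5.09 and 5.58. Single markers differed in array order. Cd3e and Cd3g had that of the immunoproteasome genes, and Itgax had it with equal controls. Ptprc, Cd4, Cd8a and Cd74 were lowest on control 1, Cd79a was highest on control 1 and Ms4a1 highest on control 2. The 11 macrophage markers had 6.74 and 6.14 against 6.56 and 6.47, and the 6 fibroblast markers 7.70 and 7.41 against 7.92 and 7.49. The part of these cells in the values of the proteasome genes was not tested.

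**Figure D2:**
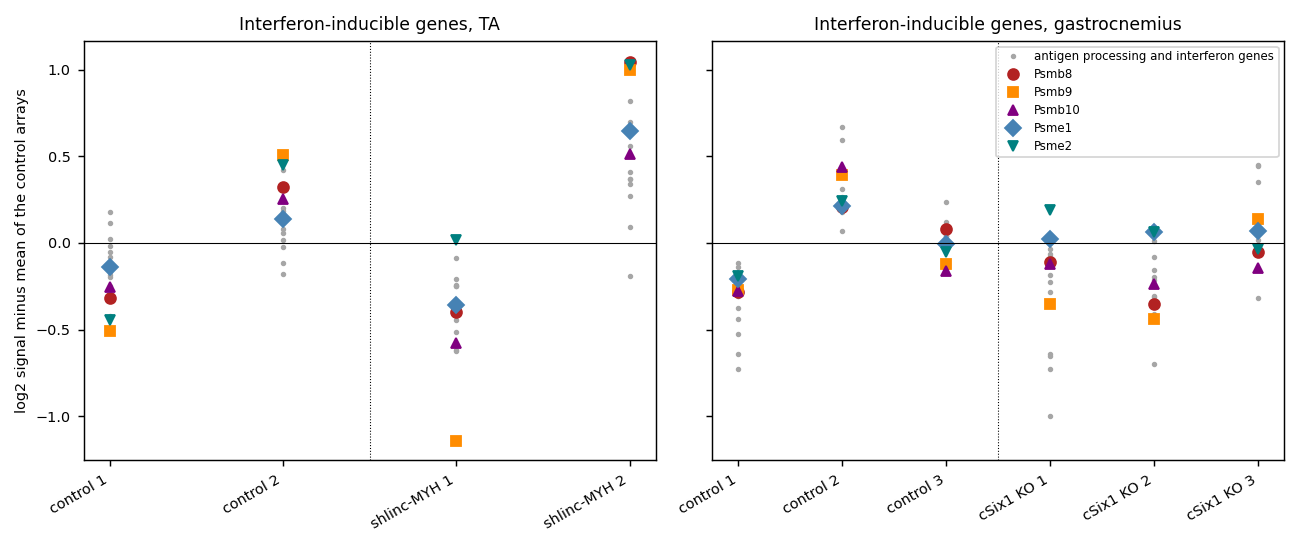
Log2 signal on each array (horizontal axis) minus the mean of the control arrays of that tissue (vertical axis, log2 units) for the immunoproteasome subunits Psmb8, Psmb9 and Psmb10 and the activator subunits Psme1 and Psme2 (colored symbols), with the 12 antigen processing and interferon genes as grey dots; the dotted line separates controls from treated arrays. In TA, Psmb9 ranges from 6.86 on shlinc-MYH 1 to 9.00 on shlinc-MYH 2, and in gastrocnemius control 2 is the highest control for all 5 genes.

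Of the assembly factors in TA, 5 of 7 were above 0, with a median of 0.06. Psmg2, a chaperone of alpha ring assembly, read 6.55 and 6.72 in the controls and 7.11 and 6.83 with shlinc-MYH, a change of 0.33 ± 0.15. Psmd10, a chaperone of the ATPase ring also known as gankyrin, read 7.18 and 7.55 against 7.68 and 7.71, a change of 0.33 ± 0.15. Psmd5, another base chaperone, read 5.89 and 6.06 against 6.16 and 6.32. The groups did not overlap for these 3 genes (background 16.3%), and their adjusted p ran from 0.598 to 0.638 by limma. Psma8 of testis and Psmb11 of thymus ranked above only 13.7% and 35.6% of genes in the TA controls, with changes of −0.05 ± 0.16 and −0.13 ± 0.13. Psmc3ip, a meiotic recombination factor, had −0.23 ± 0.16, and Psme3ip1, a partner of Psme3, had 0.19 ± 0.13.

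In gastrocnemius, the subunit genes lay slightly below control in cSix1 KO mice, while 3 assembly factors lay above it, and no member passed the test. The log2 fold change, cSix1 KO minus control, was below 0 for 37 of 50 members, where 47.2% of all genes were below 0. Its median was −0.05, against 0.01 for all genes. By limma, 0 members were called higher (background 0.908%) and 0 lower (background 0.833%), and the lowest adjusted p was 0.106. At an unadjusted p under 0.05, 3 were higher (background 8.44%) and 4 lower (background 6.5%). The methods' t-test called 0 after adjustment, with 3 higher and 5 lower before it. Over all genes that test gave 6.45% higher and 6.61% lower before adjustment and called 4 genes after it. All cSix1 KO arrays lay below all controls for 11 members (background 9.85%) and above them for 4 (background 11.0%). The 95% confidence interval lay within 2-fold for all 50 members, as for 98.2% of all genes, and within 1.5-fold for 49. The arrays differed less than in TA: the median within-group SD of the members was 0.07, against 0.16 in TA.

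Of the 31 constitutive subunits, 26 were below 0 with a median of −0.07, and their median difference from the control mean was −0.03, −0.06 and −0.16 in cSix1 KO 1, 2 and 3 and between −0.02 and 0.02 in the controls. The member median was −0.03 without cSix1 KO 3, and 35 of 50 members were then below 0. After each array was centred on its median, the member median was −0.10 and that of all genes −0.04. Centring moves every gene of an array by the same amount, so it cannot change the distance between members and other genes.

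**Figure D3:**
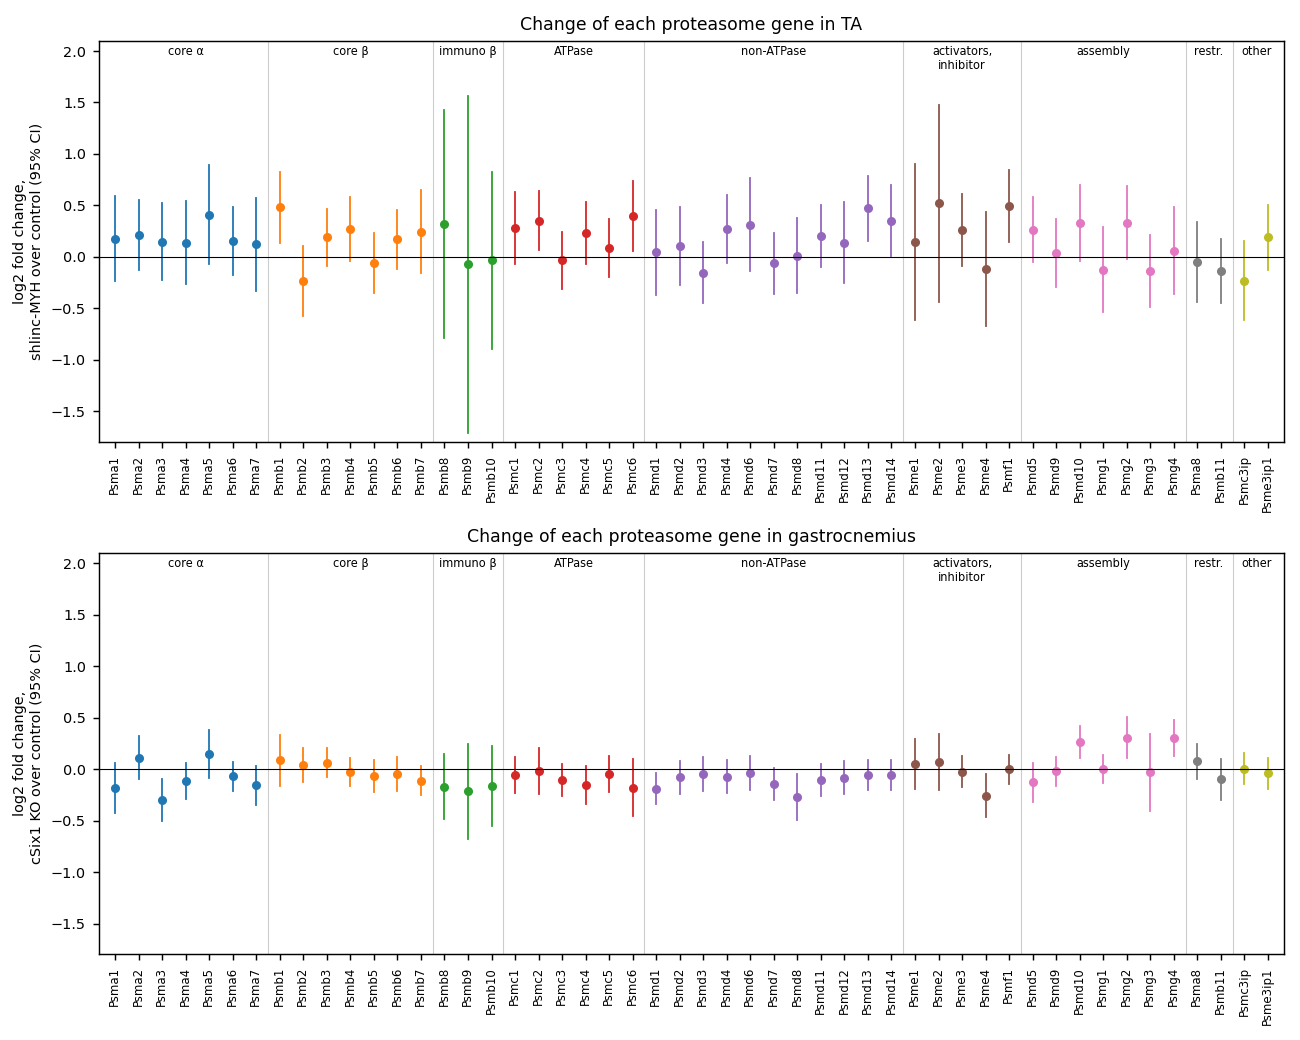
Log2 fold change of each of the 50 proteasome genes (points) with its 95% confidence interval (bars) for shlinc-MYH over control in TA (top, n = 2 per group) and cSix1 KO over control in gastrocnemius (bottom, n = 3 per group), colored by subunit group. The TA intervals are wider, widest for Psmb9, and in gastrocnemius all 11 non-ATPase and all 6 ATPase points lie below 0.

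Among the core alpha subunits in gastrocnemius, 5 of 7 were below 0. Psma3 had the lowest value of all members, reading 11.36, 11.67 and 11.48 in the controls and 11.25, 11.20 and 11.16 in cSix1 KO. The groups did not overlap, and the log2 fold change of −0.30 ± 0.09 (SE, n = 3 per group) had an adjusted p of 0.156 by limma. Psma7 read 8.68, 8.66 and 8.58 against 8.58, 8.54 and 8.33, a change of −0.16 ± 0.08. Psma1 had −0.19 ± 0.10 with overlapping groups, and Psma5 was on the other side of 0 at 0.15 ± 0.10. The beta subunits were close to their controls, with changes from −0.11 for Psmb7 to 0.09 for Psmb1. The catalytic Psmb7 read 11.17, 11.17 and 11.15 in the controls and 11.02, 11.04 and 11.09 in cSix1 KO, without overlap. Psmb3 read 12.10, 12.05 and 12.10 against 12.16, 12.11 and 12.16, a change of 0.06 ± 0.06, and Psmb5 had −0.07 ± 0.07.

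In the regulatory particle of gastrocnemius, all 6 ATPases and all 11 non-ATPase subunits were below 0, each group with a median of −0.08. The ATPase median difference from the control mean was −0.0002, −0.06 and −0.20 in cSix1 KO 1, 2 and 3. For the non-ATPase subunits it was −0.03, −0.06 and −0.16. Psmc4 read 9.84, 9.84 and 9.81 in the controls and 9.79, 9.70 and 9.54 in cSix1 KO, a change of −0.15 ± 0.08 with an adjusted p of 0.432 by limma. Psmc3 read 9.78, 9.78 and 9.73 against 9.72, 9.69 and 9.56, a change of −0.11 ± 0.07. Psmc6 had −0.18 ± 0.12, with cSix1 KO 3 at 9.42 and the other cSix1 KO arrays at 9.84 and 9.83, inside the control range of 9.82 to 9.98. Psmd1, a large scaffold of the base, read 11.97, 12.04 and 11.98 against 11.86, 11.80 and 11.75, a change of −0.19 ± 0.07 with an adjusted p of 0.217 by limma. Psmd7 read 10.07, 10.02 and 10.05 against 9.88, 9.99 and 9.83, a change of −0.15 ± 0.07. Psmd8 read 10.42, 10.28 and 10.52 against 10.29, 10.12 and 9.99, a change of −0.27 ± 0.10, with overlap. Psmd13 and Psmd14, the lid subunits with the highest fold changes in TA, had −0.05 ± 0.06 and −0.06 ± 0.06.

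The immunoproteasome subunits were below 0 for all 3 genes in gastrocnemius, with overlapping groups in each. Psmb9 read 8.07, 8.73 and 8.22 in the controls and 7.99, 7.91 and 8.48 in cSix1 KO, a change of −0.22 ± 0.20. Psmb10 read 8.23, 8.94 and 8.34 against 8.38, 8.27 and 8.36, a change of −0.17 ± 0.17. Psmb8 read 7.24, 7.73 and 7.61 against 7.42, 7.18 and 7.48, a change of −0.17 ± 0.14. In each of them control 2 was the highest array, and it was also the control with the highest signal over the 12 antigen processing and interferon genes, at a mean of 8.95 against 8.27 and 8.67. That list was below 0 for 11 of 12 genes in cSix1 KO, with a median of −0.12 and no call. Tap1, the peptide transporter, read 7.24, 8.64 and 8.02 against 7.33, 7.27 and 8.05.

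Macrophage markers lay higher in cSix1 KO. All 11 were above 0 in cSix1 KO with a median of 0.48, and Mrc1 was called, at 0.77 ± 0.10 with an adjusted p of 0.0139 by limma. Their mean log2 signal was 7.72 to 7.92 in the controls and 8.18 to 8.77 in cSix1 KO. All 6 fibroblast markers were above 0, with a median of 0.40 and no call, and their mean signal was 10.30 to 10.71 in the controls and 10.77 to 10.92 in cSix1 KO. Of the 9 lymphocyte and other leukocyte markers 6 were above 0, with a mean signal of 6.04 to 6.16 in the controls and 6.27 to 6.40 in cSix1 KO. The 7 endothelial markers had a median of 0.00, with a mean signal of 9.18 to 9.59 in the controls and 9.32 to 9.42 in cSix1 KO. The part of these cells in the values of the proteasome genes was not tested.

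The activators Psme1 and Psme2 were near control in gastrocnemius, at 0.05 ± 0.10 and 0.07 ± 0.12, as were Psme3 at −0.03 ± 0.07 and the inhibitor Psmf1 at 0.00 ± 0.06. Psme4 read 11.53, 11.71 and 11.87 in the controls and 11.41, 11.49 and 11.44 in cSix1 KO, without overlap. Its change was −0.26 ± 0.09 with an adjusted p of 0.236 by limma.

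The assembly factors held the highest fold changes in gastrocnemius. Psmg4, a partner in the chaperone of alpha ring assembly, read 7.60, 7.57 and 7.57 in the controls and 8.00, 7.85 and 7.78 in cSix1 KO, a change of 0.30 ± 0.08 with an adjusted p of 0.106 by limma. Psmg2 read 8.88, 8.64 and 8.82 against 9.15, 9.13 and 8.98, a change of 0.31 ± 0.09 with an adjusted p of 0.144. Psmd10 read 8.70, 8.62 and 8.71 against 8.99, 8.97 and 8.87, a change of 0.26 ± 0.07 with an adjusted p of 0.112. In these 3 genes all cSix1 KO arrays exceeded all controls (background 11.0%). When arrays were weighted by quality in the fit, Psmd10 and Psmg4 were called, at adjusted p of 0.0343 and 0.0353 by limma, in a fit that called 2.83% of all genes higher. The other 4 assembly factors, Psmd5, Psmd9, Psmg1 and Psmg3, had changes from −0.13 to 0.00. Psma8 and Psmb11, at the 17.1 and 28.1 percentile of genes in the controls, had 0.07 ± 0.07 and −0.10 ± 0.09. Psmc3ip had 0.00 ± 0.07 and Psme3ip1 −0.04 ± 0.07.

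The difference between the comparisons, shlinc-MYH effect in TA minus cSix1 KO effect in gastrocnemius, was tested in 1 fit over all 10 arrays. It was above 0 for 42 of 50 members (background 43.3%), with a median of 0.23 against −0.03 for all genes. By limma 0 members were called higher (background 0.0752%) and 0 lower (background 0.0702%). At an unadjusted p under 0.05, 13 were higher (background 5.21%) and 0 lower (background 7.1%). Psmd13 had the largest statistic, a difference of 0.53 ± 0.13 (SE) with an adjusted p of 0.157. Psmf1 had 0.50 ± 0.14, Psmd14 0.41 ± 0.14, Psmc6 0.58 ± 0.19 and Psmc4 0.38 ± 0.14, with adjusted p from 0.221 to 0.301 by limma. Of the 31 constitutive subunits, 22 (71.0%) were above 0 in TA and below 0 in gastrocnemius, as were 28 of all 50 members (56.0%) and 19.3% of all genes. The median difference depended on the TA controls: it was 0.06 without control 1 and 0.39 without control 2. The assembly factors Psmg2 and Psmd10 were above 0 in both tissues and had differences of 0.03 ± 0.16 and 0.07 ± 0.15. The fit shared 1 spread per gene over both tissues, although the median within-group SD of the members was 0.16 in TA and 0.07 in gastrocnemius. Its SE for Psmd13, 0.125, was below the SE of 0.131 in TA alone, so these SEs and p-values may be too small. The comparisons also differed in tissue, perturbation and sample type, which cannot be told apart.

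**Figure D4:**
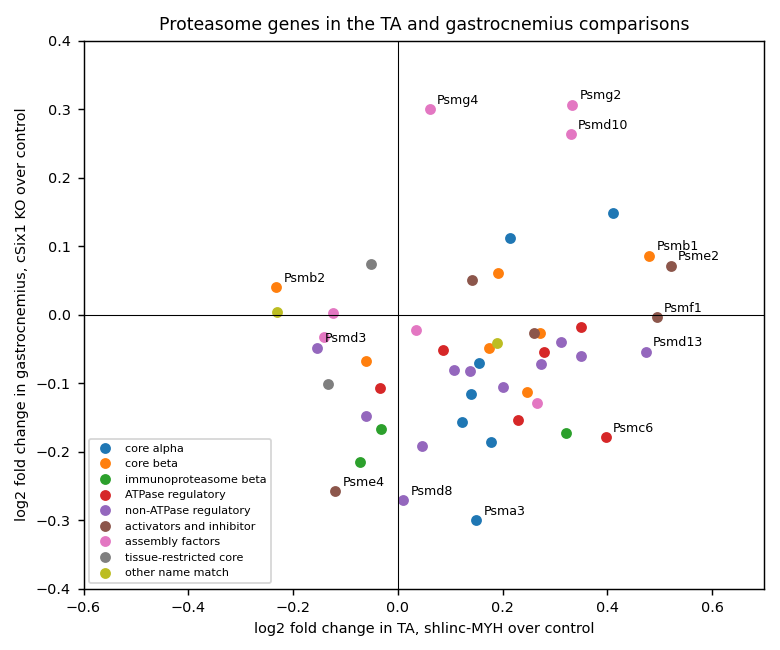
Log2 fold change of each of the 50 proteasome genes in TA, shlinc-MYH over control (horizontal axis), against that in gastrocnemius, cSix1 KO over control (vertical axis), colored by subunit group; the lines mark 0. The lower right quadrant, above 0 in TA and below 0 in gastrocnemius, holds 28 genes, and the upper part of the plot holds Psmg2, Psmg4 and Psmd10.

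Genes that work with the proteasome were read beside its subunits. Of 12 measured proteasome-associated genes outside the symbol pattern, 1 was called, Ecpas, a scaffold that binds the proteasome. It read 11.28, 11.40 and 11.35 in the gastrocnemius controls and 10.82, 10.91 and 10.91 in cSix1 KO, where it fell by 0.46 on the log2 scale (SE 0.07) with an adjusted p of 0.0202 by limma. The call was lost without control 1, 2 or 3 or without cSix1 KO 1 or 2, at adjusted p of 0.05998 to 0.09686, and stood without cSix1 KO 3 at 0.02403. It was also lost with replicate number as a block, at an adjusted p of 0.0603 by limma, and under the methods' t-test. In TA, Ecpas had −0.06 ± 0.15. The other 11 were not called in either tissue. Of all 12, 7 were above 0 in TA (background 43.7%) and 9 below 0 in gastrocnemius (background 47.2%). At an unadjusted p under 0.05 by limma, 2 were higher in TA (background 4.27%) and 5, with Ecpas, lower in gastrocnemius (background 6.5%). None went the other way at that threshold. Pomp, the maturation chaperone of the core particle, read 10.14 and 10.50 against 10.60 and 10.92 in TA, a change of 0.44 ± 0.18, and had 0.03 ± 0.08 in gastrocnemius. Ubqln1, a shuttle for ubiquitylated proteins, read 7.08 and 7.12 against 7.50 and 7.50 in TA, a change of 0.40 ± 0.11 with an adjusted p of 0.474 by limma.

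Of 7 measured regulators of proteasome gene transcription, 7 were above 0 in TA (background 43.7%) and 4 in gastrocnemius (background 52.8%), with no call in either. Among the TA values, Keap1 at 0.01 ± 0.11 and Ngly1 at 0.02 ± 0.15 were close to 0. Nfe2l1 read 9.15 and 9.51 in the TA controls and 9.70 and 9.77 with shlinc-MYH, a change of 0.40 ± 0.15 with an adjusted p of 0.549, and had −0.07 ± 0.06 in gastrocnemius. Nfe2l2 had 0.34 ± 0.12 in TA and 0.22 ± 0.10 in gastrocnemius, with adjusted p of 0.525 and 0.335 by limma. Its partner Maff had 0.03 ± 0.15 and 0.28 ± 0.18. Of 5 measured ubiquitin and unfolding genes, 4 were above 0 in TA and 0 in gastrocnemius, with no call. The ubiquitin-activating enzyme Uba6 had 0.40 ± 0.19 in TA and −0.22 ± 0.23 in gastrocnemius, and the unfoldase Vcp 0.12 ± 0.14 and −0.09 ± 0.07. The atrophy ligases were not called: Fbxo32 had −0.15 ± 0.14 in TA and 0.18 ± 0.17 in gastrocnemius, and Trim63 had 0.13 ± 0.25 and −0.08 ± 0.12.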

How the data were processed

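Values were the deposited log2 signals of 10 Affymetrix Mouse Gene 1.0 ST arrays, which the authors made by robust multi-array averaging (RMA). The labels also name Partek, and no version of either is stated. Whether the tissues were normalized together is not stated. Labels and methods differ on RNA input and labeling kit, and the methods elsewhere give an older age for electroporated mice.

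Of 35556 probe sets, 21789 carried 1 gene symbol in the platform annotation, 1621 several and 12146 none. Genes were read from probe sets with 1 symbol, taking the one with the highest mean where a gene had more. Groups came from the sample labels. limma 3.58.1 (R 4.3.3; lmFit, eBayes) was fitted to each tissue, and to all arrays for the difference between the comparisons, with Benjamini-Hochberg adjustment over 19938 genes; a gene was called at an adjusted p under 0.05. Code was tested on simulated data. The number of arrays limits precision, and array signals have no counting depth. Named genes were the 3 with the largest test statistic per subunit group and comparison, all immunoproteasome subunits with Psme1, Psme2 and Psme3, the 5 with the largest statistic for the difference, and in each other list those called or otherwise the leading pair, with Fbxo32 and Trim63. Members and lists were chosen with earlier results of these data known. Other genes named in the text were chosen after their values were seen. Alternatives covered normalization, centring, dim genes, probe set averaging, variance prior, array weights, pairing, a joint fit, the methods' t-test and leaving out each array. Some items are not reported here.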

Additional observations from a re-analysis of the deposited data

How the results depend on the processing

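The count of members called stayed at 0 under every alternative run except array weights in gastrocnemius, which gave 2. The methods' t-test was run for the TA and gastrocnemius comparisons and not for the difference, which is always a fit of all arrays. The member median in TA was 0.0132 to 0.3078 when 1 array was left out (0.16 with all), and that of the difference 0.0616 to 0.3919 (0.23 with all); the cause was not tested. In gastrocnemius median centring moved it to −0.10, while the median of all genes moved from 0.01 to −0.04. Signs turned for genes that were not called. With 1 array left out, TA log2 fold changes ran from −0.25 to 0.51 for Trim63, −0.2367 to 0.1349 for Psma8, −0.576 to 0.5114 for Psmb10, −0.3987 to 1.0428 for Psmb8, −1.1409 to 0.9962 for Psmb9, −0.3592 to 0.6437 for Psme1 and −0.6159 to 0.0913 for Irf9. In gastrocnemius they ran from −0.0089 to 0.3068 for Fbxo32, −0.0515 to 0.1568 for Psme1, −0.0232 to 0.1913 for Psme2, −0.0508 to 0.0007 for Psme3, −0.3045 to 0.0505 for Psmb10 and −0.0192 to 0.0376 for Psmc3ip. Averaging probe sets gave Nlrc5 0.0465 in TA. In gastrocnemius Psmc3ip was −0.0217 with quantile normalization, −0.0431 with median centring and −0.0135 with array weights, and Psme3 was 0.0171 with quantile normalization. With replicate number as a block, 0 members were called in TA, gastrocnemius and the difference and Ecpas was lost in gastrocnemius. Same-number correlations were 0.185 in TA and 0.216, −0.137 and 0.084 in gastrocnemius. The 2 TA pairs give 1 value by construction, so it cannot decide whether the numbers pair arrays. No source says that they do, and the main fits did not pair arrays. Calls over all genes, 3 in TA, 347 in gastrocnemius and 29 for the difference, ran over the alternatives from 0 to 131, 4 to 989 and 6 to 100. Median centring turned the gastrocnemius split from 181 higher and 166 lower to 142 and 247.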

Other observations

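Of the members, 5 had more than 1 probe set with their symbol alone, and near-identical processed copies can share their signal. The 3 probe sets of Psma3 read between 11.28 and 11.67 in the gastrocnemius controls and between 11.07 and 11.25 in cSix1 KO, without overlap. The second probe set of Psma5 read 7.87 and 8.44 in the TA controls and 8.39 and 8.65 with shlinc-MYH, overlapping where the one used did not. The probe set that Psme2 shares with Psme2b read 6.73 and 6.99 in the TA controls and 6.85 and 7.51 with shlinc-MYH, the same array order as on the probe set of Psme2 alone.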
